A study of Mus musculus with 27 samples.

Results

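The genes described here move or bind zinc, iron and copper. They were chosen by symbol: every Slc30a and Slc39a gene with a number, Slc11a1, Slc11a2, Slc31a1, Slc31a2, Slc40a1, Mt1 to Mt4, Fth1, Ftl1, Tfrc, Heph, Cybrd1, Atp7a and Atp7b, with pseudogenes left out. The rule gave 40 of the 35975 genes measured: 10 zinc exporters of the Slc30a family, 14 importers of the Slc39a family, 4 metallothioneins, 4 genes of iron uptake, 2 of iron storage, 2 of iron export and 4 of copper transport. RNA of whole colon segments was sequenced after poly(A) selection in 27 libraries from 14 adult mice of mixed background. Foxa1 and Foxa2 are forkhead transcription factors of gut epithelium. In the deficient group, 7 mice carried both floxed alleles of Foxa1 and of Foxa2 together with Villin1-Cre, a recombinase driven in intestinal epithelium, while the RNA came from the whole tissue. The control group was mixed: 5 mice had the same floxed alleles without Cre, control mouse 1 carried Villin1-Cre with 1 floxed and 1 wild-type allele of each gene, and control mouse 6 carried Villin1-Cre with both Foxa1 alleles floxed and 1 wild-type Foxa2 allele. Proximal colon came from 7 deficient and 7 control mice and distal colon from 7 deficient and 6 control mice, with 13 mice giving both segments. Deficient mice were 9 to 13 months old and control mice 9 to 18 months old, and 2 deficient mice and none of the controls were labelled female.

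Cells handle these metals by moving them across membranes and by binding what is left. Slc30a proteins carry zinc out of the cytosol, to the outside or into vesicles, and Slc39a proteins carry zinc into it, while metallothioneins hold zinc and copper in the cytosol. Intestinal epithelium takes up ferrous iron through Slc11a2, stores it in ferritin, made of Fth1 and Ftl1 chains, and releases it through Slc40a1 (ferroportin) with the help of the ferroxidase Heph. Copper enters through Slc31a1 and leaves through the pumps Atp7a and Atp7b. Metal supply is read by the zinc-sensing factor Mtf1, which binds metal response elements in promoters, and by the iron regulatory proteins Aco1 and Ireb2, which bind iron-responsive stem-loops in mRNA: in a 5′ UTR they hold back translation, and in the 3′ UTR of Tfrc they protect the mRNA.

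The stem-loops found in iron genes are shown because the levels of these mRNAs are among the iron results given here. A stem-loop was searched as a bulged c, a stem of 5 pairs and the loop CAGTGN, 17 bases in all, and the loop is in capitals. It was found in UTRs of 160 of 21877 protein-coding genes (0.73%) and of 4 of the 40 members. No match in the other members, Slc11a2 among them, says only that these letters were not in their annotated UTRs. It does not say that they lack an iron-responsive element. Sequences are from the GENCODE M21 transcripts on GRCm38, 5′ to 3′ on the gene's strand. The Fth1 site lies at chr19:9982738-9982754 (plus strand), the Ftl1 site at chr7:45459785-45459801 (minus), the Slc40a1 site at chr1:45925471-45925487 (minus), and the 4 of Tfrc at chr16:32631225-32631241, chr16:32631604-32631620, chr16:32631669-32631685 and chr16:32631716-32631732 (plus).
Fth1 5′ UTR: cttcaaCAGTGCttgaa
Ftl1 5′ UTR: cttcaaCAGTGTttgaa
Slc40a1 5′ UTR: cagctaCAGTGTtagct
Tfrc 3′ UTR site 1: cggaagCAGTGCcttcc
Tfrc 3′ UTR site 2: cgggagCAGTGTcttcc
Tfrc 3′ UTR site 3: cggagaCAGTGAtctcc
Tfrc 3′ UTR site 4: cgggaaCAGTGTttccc

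The promoters of Mt1 and Mt2, neighbours on chromosome 8, are shown because Mt1 was called between genotypes in proximal colon and Mt2 was not, a contrast between the genes that was not itself tested. The metal response element core TGCACNC or TGCGCNC, on either strand, is in capitals in these RefSeq promoters (GRCm38.p6, 250 bases before the start and 50 from it on, plus strand, chr8:94178839-94179138 for Mt1 and chr8:94172368-94172667 for Mt2).
Mt1 promoter: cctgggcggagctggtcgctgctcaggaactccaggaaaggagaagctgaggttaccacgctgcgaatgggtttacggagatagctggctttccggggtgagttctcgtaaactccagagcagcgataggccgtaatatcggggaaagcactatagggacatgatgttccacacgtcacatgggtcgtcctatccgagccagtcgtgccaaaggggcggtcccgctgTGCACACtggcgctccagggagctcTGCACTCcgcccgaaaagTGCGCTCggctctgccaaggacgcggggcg
Mt2 promoter: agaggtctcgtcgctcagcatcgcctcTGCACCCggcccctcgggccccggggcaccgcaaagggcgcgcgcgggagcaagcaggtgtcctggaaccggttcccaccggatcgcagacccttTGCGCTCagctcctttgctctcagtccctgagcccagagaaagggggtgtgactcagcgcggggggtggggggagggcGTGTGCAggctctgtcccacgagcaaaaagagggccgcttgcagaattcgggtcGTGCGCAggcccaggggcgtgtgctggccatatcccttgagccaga
The Mt1 window held 3 cores, with first bases at -23, 2 and 20 from the RefSeq start, and the Mt2 window held 4, with first bases at -223, -128, -50 and 4. Of all 32851 promoters of this length, 25.7% held at least 1 core and 1.97% held 3 or more. For 33 of the 40 members 40 promoters were found, and 20 of these 40 promoters held a core. Counted by gene, 19 of the 33 members held a core in at least 1 promoter. Besides Mt1 and Mt2, Slc30a4 and Slc30a10 held 3 each. Atp7a, Slc30a1 and Slc30a2 held 2 each, and Tfrc held 2 at 1 of its starts. The forkhead core TGTTTAC or TATTTAC, on either strand, was in 6.5% of all promoters and in 0 of the 40 member promoters. A match is a description of letters, not a binding site. Cores outside a window were not counted, and the counts depend on the start used. The Mt2 window ends at base 94172667, while the Mt2 gene starts at base 94172664 in GENCODE M21.

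Libraries held 18472867 to 56744113 estimated counts. Epithelial, colonocyte and goblet cell markers were read in every group. Foxa1 lay between 7.21 and 14.5 CPM (counts divided by library size, scaled over all libraries) in the 14 deficient libraries and between 42.4 and 80.8 CPM in the controls other than mouse 6. In control mouse 6, Foxa1 was as low as in deficient mice (13.9 CPM, proximal, and 7.60 CPM, distal), and its Foxa2 was in the range of the other controls or above it. Deficient mouse 3 is labelled male, but its Y-linked Ddx3y was at 0.0216 and 0.617 CPM, under 1 CPM as in both mice labelled female, while the other labelled males had 33.3 to 76.0 CPM. So 3 deficient mice and no control lacked Ddx3y, and sex and genotype are partly confounded. In distal colon the 2 Cre-carrying controls lay on the same side of all 4 Cre-free controls for 29.2% of tested genes. In proximal colon, with 5 Cre-free controls, the share was 6.61%, and the unlike numbers of controls give the 2 shares unlike baselines.

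Ferritin heavy chain stood above every other member in each group when levels were compared per length. The deposited TPM (a share of transcripts, corrected for length), summed per gene, put Fth1 at 4028 ± 425 in proximal deficient and 6275 ± 753 in proximal control colon, and at 2913 ± 340.4 in distal deficient and 3229 ± 1016 in distal control colon (SD, n = 7, 7, 7 and 6). Mt1 came next in both deficient groups, with 2254 ± 523 TPM in proximal and 1320 ± 252 TPM in distal colon. In controls it stood behind Fth1 and Ftl1, at 706 ± 775 TPM in proximal and 470.2 ± 524 TPM in distal colon. Its SD in controls exceeded its mean, with control mouse 6 the highest.

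Below these, Slc39a4, the zinc importer of the luminal membrane, led the zinc transporters in every group. It was at 163 ± 26.1 TPM in proximal deficient against 180.4 ± 22.6 TPM in proximal control colon, and at 157 ± 23.1 TPM in distal deficient against 149.9 ± 24.6 TPM in distal control colon. Slc40a1 averaged 149 ± 29.6 TPM in proximal deficient colon and 110.2 ± 45.7 TPM in proximal control colon. Cybrd1, the ferric reductase that serves Slc11a2 in duodenum, stayed under 1 TPM on average in each group, at 0.776 ± 0.286 in proximal deficient and 0.566 ± 0.194 in proximal control colon. Mt4, Slc30a3, Slc30a8 and Slc39a12 did not pass the filter on low counts in any comparison, with at most 19 counts in a library. The other 36 members were tested.

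**Figure D1:**
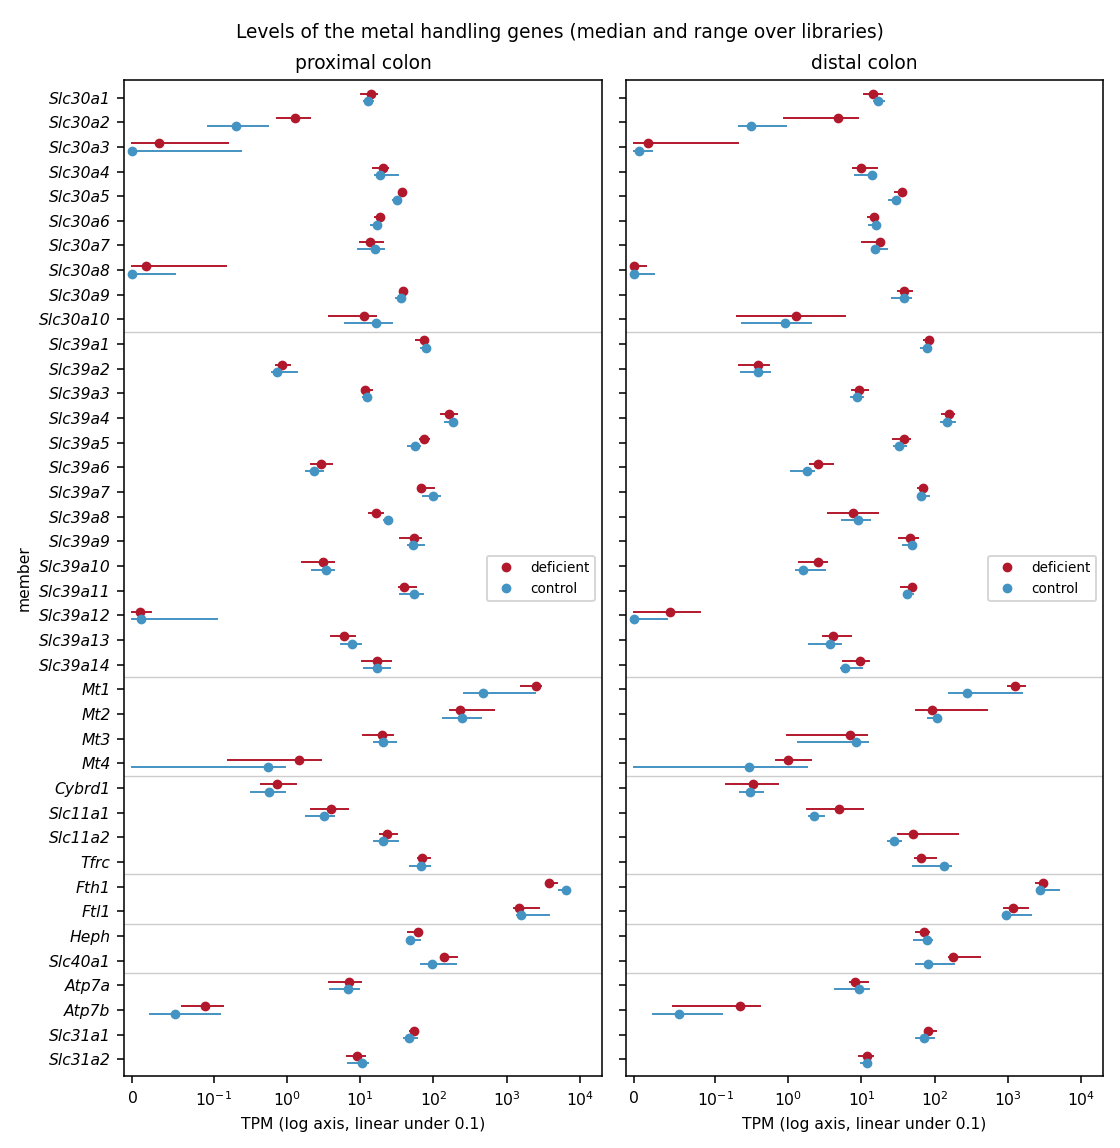
TPM of the 40 members in proximal (left) and distal (right) colon on a log axis, linear under 0.1; points are medians and lines run over all libraries of a group, deficient above control. Fth1, Ftl1 and Mt1 lie at the top of each group, and Slc30a3, Slc30a8 and Slc39a12 lie near 0.

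In proximal colon, deficient mice had more RNA of the zinc exporter Slc30a2 and of the metallothionein Mt1 than control mice, and less of the zinc transporters Slc39a7 and Slc39a8 and of ferritin heavy chain Fth1. Smaller increases of Slc30a5 and Slc39a5 also passed the test. In all, 7 of the 36 tested members were called at an adjusted p under 0.05 (4 higher, 3 lower), 19.4% of them against 11.7% of the 16787 genes tested. The median log2 fold change over the members was 0.04, and 0.01 over all genes. By list, 2 of 8 tested exporters rose and none fell, 1 of 13 tested importers rose and 2 fell, and 1 of 3 tested metallothioneins rose. Of the iron lists, 1 of 2 storage genes fell, and none of the 4 uptake or 2 export genes passed, nor did any of the 4 copper genes. The 29 members that were not called had log2 fold changes between -0.88 and 0.82.

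**Figure D2:**
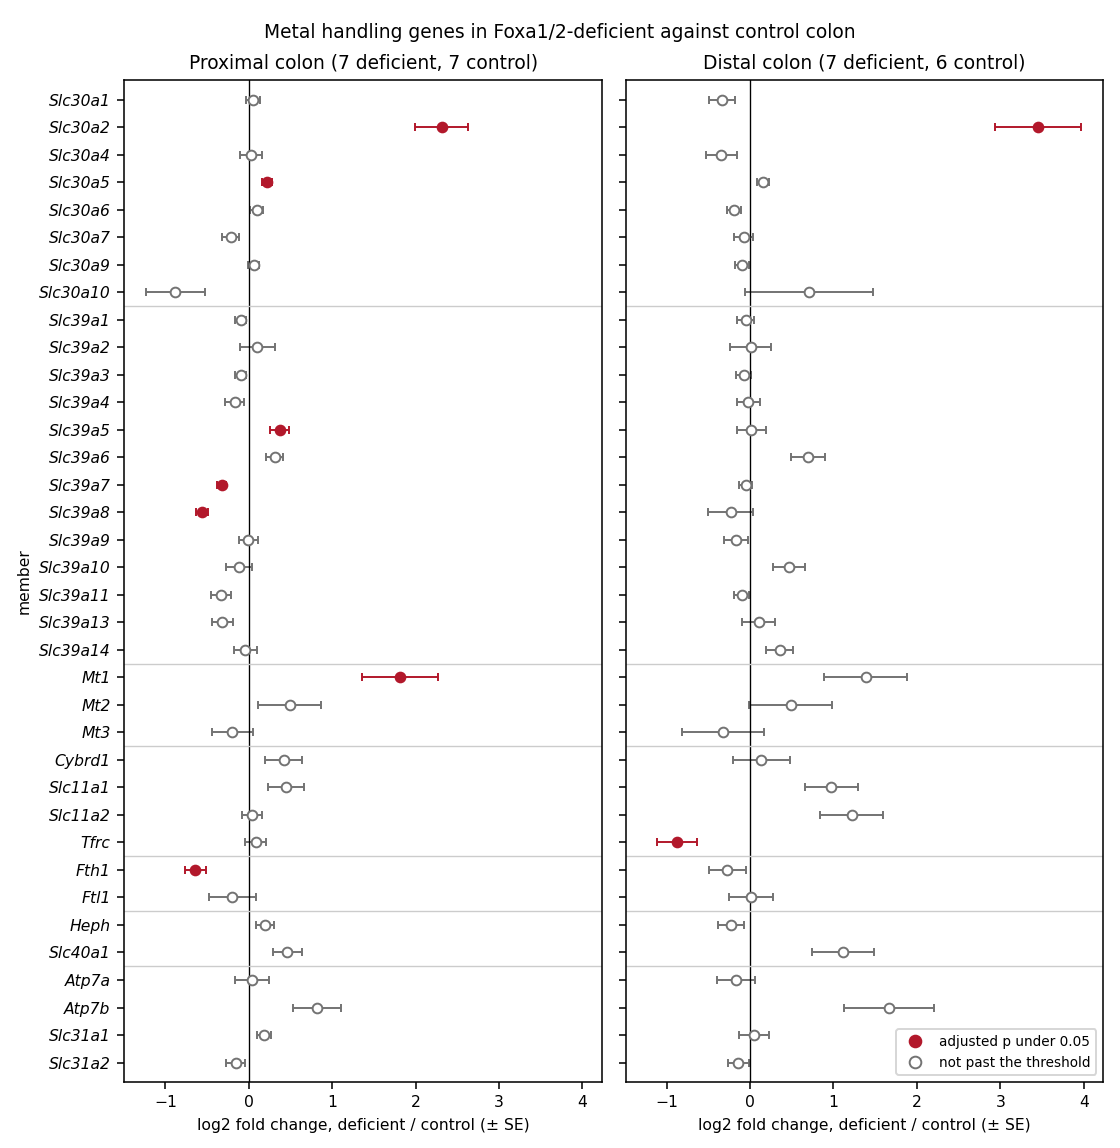
Log2 fold change of deficient over control for the 36 tested members, with standard error, in proximal (left) and distal (right) colon, grouped by role. Filled points passed an adjusted p of 0.05: 7 in proximal and 2 in distal colon, with Slc30a2 farthest to the right in both.

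Slc30a2 (ENSMUSG00000028836.14, chr4:134343181-134354484, plus strand), which loads zinc into vesicles and is known from Paneth and mammary cells, was low in controls. Proximal deficient libraries held 2.55, 1.13, 2.66, 2.67, 4.21, 1.64 and 2.01 CPM in mice 1 to 7. Proximal control libraries held 0.210, 0.619, 0.493, 0.463, 0.358, 0.893 and 0.398 CPM. Every deficient library was above every control library. Slc30a2 had a log2 fold change of 2.31 (SE 0.32, adjusted p = 0.000113, edgeR), from 63 to 214 counts in a deficient library and 10 to 36 in a control library.

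In distal colon Slc30a2 was at 10.7, 1.81, 15.8, 10.7, 12.3, 11.4 and 22.1 CPM in deficient mice 1 to 7. The distal controls were at 0.822, 0.521, 0.968, 0.629, 0.927 and 2.85 CPM in mice 1 to 6. Deficient mouse 2 lay between control mouse 6 and the other controls, and every other deficient library was above all controls. This was a log2 fold change of 3.45 (SE 0.52, adjusted p = 0.00101), and the call held in each alternative run for either segment. The difference between the segments' fold changes, 1.17 (SE 0.45), did not pass (adjusted p = 0.312).

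Because segments hold several cell types, fewer cells of a type and less RNA per cell cannot be told apart in any of these values. Paneth cell markers were read beside Slc30a2. In proximal colon 4 of the 9 markers were tested, 1 higher and 1 lower, and their summed level was 26.6 to 844 CPM among deficient libraries, against 15.4 to 57.0 CPM in control libraries. In distal colon the sum was 17.6 to 1009 CPM among deficient libraries, against 28.3 to 2300 CPM in control libraries, again with 1 marker higher and 1 lower. Ang4 carried most of the highest sums, with up to 830.4 CPM in proximal deficient and 36.6 CPM in proximal control libraries, and up to 998 CPM in distal deficient and 2208 CPM in distal control libraries. The median of Mmp7 was 0.624 CPM in proximal deficient and 3.64 CPM in proximal control libraries. That of Lyz1 was 3.38 and 4.17 CPM and that of Itln1 2.09 and 1.95 CPM in the same groups. In distal colon Mmp7 went the other way, with medians of 2.74 CPM in deficient and 0.323 CPM in control libraries. Distal medians in the same order were 4.83 and 6.47 CPM for Lyz1 and 2.37 and 23.7 CPM for Itln1. Each of the 5 listed defensins reached 3.3 to 21.6 CPM in its highest proximal deficient library, against at most 0.0498 CPM among proximal controls. Their medians in proximal deficient colon were no higher than 0.0499 CPM. All 5 were at 0 in the distal deficient libraries, and 3 of them were at 0 in the distal controls too. None passed 0.058 CPM in distal controls, so the distal sums are no measure of Paneth cells. Small-intestinal enterocyte markers moved with genotype in proximal colon, where 10 of 10 tested were higher and their sum was 906 to 2910 CPM among deficient libraries, against 319 to 624 CPM in control libraries. In distal colon 5 of 8 tested were higher, with a sum of 136 to 412 CPM among deficient libraries, against 223 to 494 CPM in control libraries. Of 7 colonocyte markers 1 was higher and 3 lower in proximal colon (sums of 15700 to 23600 CPM, deficient, and 21200 to 31660 CPM, control), and 2 were lower in distal colon (7799 to 19320 CPM, deficient, and 14200 to 23780 CPM, control). Of 7 goblet cell markers 2 were lower in proximal colon, with sums of 3154 to 7527 CPM, deficient, and 6433 to 9799 CPM, control. In distal colon 0 of the 7 were called, with sums of 13560 to 26530 CPM (median 22200), deficient, and 25500 to 36030 CPM (median 33620), control. The part of these cell types in the changes of the members was not tested.

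Mt1 (ENSMUSG00000031765.8, chr8:94179082-94180327, plus strand), a metal-binding protein whose gene is switched on by zinc, stood at 414, 369, 703, 730.1, 874, 467 and 672 CPM in proximal deficient mice 1 to 7. The proximal controls were at 152, 60.0, 129, 124, 62.0, 606 and 87.6 CPM. All deficient libraries were above 6 of the 7 controls, and control mouse 6 lay inside their range. Mt1 had a log2 fold change of 1.81 (SE 0.46, adjusted p = 0.0154). Against Cre-free controls alone it was 2.72 (adjusted p = 1.72e-05). Among mice labelled male it was 1.64 (adjusted p = 0.0563), and without the 3 deficient mice that lacked Ddx3y it was 1.53 (adjusted p = 0.121), so the call was lost there.

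In distal colon Mt1 was at 520.4, 314, 330.4, 344, 242, 359 and 461 CPM in deficient mice and at 101, 40.4, 56.8, 73.4, 86.8 and 493 CPM in control mice. The pattern was that of proximal colon, with control mouse 6 alone among the controls inside the deficient range. The log2 fold change of 1.39 (SE 0.50) did not pass (adjusted p = 0.14). Without control mouse 6 it was 2.36 (adjusted p = 6.77e-05), and against Cre-free controls it was 2.51 (adjusted p = 0.000103). Without the deficient mice that lacked Ddx3y it was 1.46 (adjusted p = 0.277).

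The neighbouring Mt2 (ENSMUSG00000031762.7, chr8:94172664-94173568, plus strand) was not called in either segment. Proximal deficient libraries were at 34.1, 37.0, 37.6, 126, 111, 43.9 and 149 CPM, against 97.3, 26.4, 72.6, 63.4, 32.8, 48.3 and 47.8 CPM in proximal controls. Deficient mice 4, 5 and 7 were above all controls and the other deficient mice were among them. Its log2 fold change was 0.49 (SE 0.38, adjusted p = 0.514). In distal colon, deficient libraries lay between 12.7 and 35.4 CPM apart from mouse 7 at 129 CPM, and controls lay between 17.7 and 30.1 CPM. Mt3 had log2 fold changes of -0.20 (adjusted p = 0.706) in proximal and -0.33 (adjusted p = 0.785) in distal colon.

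Of the zinc importers, Slc39a8 (ENSMUSG00000053897.15, chr3:135825279-135888572, plus strand), which also carries manganese and iron, was at 33.7 to 41.2 CPM in proximal deficient libraries (median 37.9) and at 46.9 to 59.4 CPM in proximal control libraries (median 57.5). The ranges did not overlap, and the log2 fold change was -0.56 (SE 0.07, adjusted p = 5.16e-05). Slc39a7 (ENSMUSG00000024327.16, chr17:34028269-34031682, minus strand), which releases zinc from the endoplasmic reticulum, was at 91.8 to 102 CPM among proximal deficient libraries, against 117 to 136 CPM among proximal controls, again without overlap (log2 fold change -0.32, SE 0.06, adjusted p = 0.000893). In distal colon neither passed. Slc39a8 lay at 10.2 to 38.6 CPM among deficient libraries, against 17.1 to 31.7 CPM in control libraries, and Slc39a7 at 94.9 to 121 CPM among deficient libraries, against 100.5 to 129 CPM in control libraries.

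Slc39a5, a basolateral zinc transporter of gut epithelium, rose by a log2 fold change of 0.37 (SE 0.11, adjusted p = 0.0444) in proximal colon, with 67.7 to 105 CPM among deficient libraries, against 49.8 to 80.8 CPM in control libraries. Slc30a5, which supplies zinc to enzymes of the secretory pathway, rose by 0.22 (SE 0.06, adjusted p = 0.0252), with 68.3 to 79.7 CPM among deficient libraries, against 59.4 to 73.1 CPM in control libraries. Both calls were near the threshold. With 1 library left out, Slc39a5 stayed called in 4 of 14 fits (adjusted p up to 0.107) and Slc30a5 in 7 of 14 (adjusted p up to 0.0847). The libraries whose absence ended the call were control mice 1, 2, 3 and 5 and deficient mice 3, 4 and 5 for both genes, and also control mouse 7 and deficient mice 6 and 7 for Slc39a5.

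Fth1 (ENSMUSG00000024661.7, chr19:9980598-9985098, plus strand), the ferritin chain that oxidises iron for storage, was at 1726, 1619, 2330, 2093, 2238, 2057 and 2585 CPM in proximal deficient mice 1 to 7. Proximal controls were at 3703, 2777, 3832, 3801, 2654, 3588 and 2753 CPM. Every deficient library was below every control library, with a log2 fold change of -0.64 (SE 0.12, adjusted p = 0.00206). In distal colon the deficient libraries were at 1239 to 2171 CPM, inside the control range of 1330 to 3437 CPM except for mouse 2 (log2 fold change -0.27, adjusted p = 0.581). Both Cre-carrying distal controls (3437 and 2818 CPM) were above all other distal libraries. Ferritin genes have near-identical pseudogene copies among which the quantification divides reads, so their levels are uncertain.

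Ftl1, the light chain, was not called. Its high proximal libraries were deficient mice 4 and 5 (1436 and 1726 CPM) and control mice 6 and 7 (2045 and 1612 CPM), with the others between 573 and 964 CPM. In distal colon deficient mice 4 and 5 and control mouse 6 were again the highest of their groups, at 1064, 1012 and 1559 CPM.

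Groups that do not overlap at all were counted as well. In proximal colon 4 members met this, Slc30a2 above and Fth1, Slc39a7 and Slc39a8 below all controls, 11.1% of the tested members against 4.81% of all tested genes. In distal colon 0 members did, against 3.4% of all genes. When only Cre-free controls were counted, Mt1, Slc30a5 and Slc40a1 joined the proximal set, giving 7 members, 19.4% against 7.49% of all genes. In distal colon 5 members then stood apart: Mt1, Slc11a1, Slc30a2 and Slc40a1 above and Tfrc below, 13.9% against 6.18% of all genes.

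In distal colon, deficient mice had more Slc30a2 and less Tfrc, the transferrin receptor through which cells take up circulating iron. Those were the only 2 of 36 tested members called by edgeR, 5.56% against 6.07% of the 16041 genes tested. At an unadjusted p under 0.05, edgeR had 13 members, 36.1% against 18.4% of all genes. DESeq2 called 8 members, 22.2% against 9.38% of the 16031 genes to which it gave an adjusted p. Those 8 were both of these with Atp7b, Mt1, Slc11a1, Slc11a2, Slc39a6 and Slc40a1, all 6 higher. The medians were -0.01 over the members and 0.01 over all genes (log2 fold change). None of the 13 tested importers passed, and the 34 members not called had log2 fold changes between -0.34 and 1.66.

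Tfrc (ENSMUSG00000022797.16, chr16:32608920-32632794, plus strand), whose 3′ UTR carries the 4 stem-loops printed above, was at 204, 316, 270.1, 236, 191, 213 and 209.9 CPM in distal deficient mice 1 to 7. Distal controls were at 237, 467, 567.9, 608, 492 and 219 CPM. Control mice 1 and 6, both with Cre, were inside the deficient range, and the 4 Cre-free controls were above every deficient library. The log2 fold change was -0.88 (SE 0.24, adjusted p = 0.0412). The call was narrow: it held in 3 of 13 fits with 1 library left out, those without control mouse 1, control mouse 6 or deficient mouse 2. Without any 1 of the other 10 libraries the adjusted p lay between 0.0567 and 0.0988. Against Cre-free controls alone the log2 fold change was -1.19 (adjusted p = 0.000408), and without the deficient mice that lacked Ddx3y it was -0.82 (adjusted p = 0.211). Erythroid markers, 0 of 5 called, summed to 5.86 to 89.2 CPM (median 23.9) in distal deficient mice, against 44.4 to 748 CPM (median 149) in distal controls. Smooth muscle markers, 0 of 6 called, summed to 435 to 1622 CPM in distal deficient mice, against 1005 to 3236 CPM in distal controls. The part of either in the Tfrc values was not tested.

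In proximal colon Tfrc did not differ past the threshold, with 182 to 279 CPM among deficient libraries, against 139 to 262 CPM in control libraries (log2 fold change 0.08, adjusted p = 0.771). The test of the difference between segments called 0 of 36 members with edgeR, against 1.01% of 17595 genes, and 7 members were at an unadjusted p under 0.05, 19.4% against 11.5% of all genes. Tfrc had the smallest p of them, with a difference of -0.86 (SE 0.24, adjusted p = 0.126). DESeq2 called it alone among the members (-0.87, adjusted p = 0.0175), 2.78% against 3.06% of all genes with an adjusted p, as did edgeR against Cre-free controls (-1.18, adjusted p = 0.0119).

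**Figure D3:**
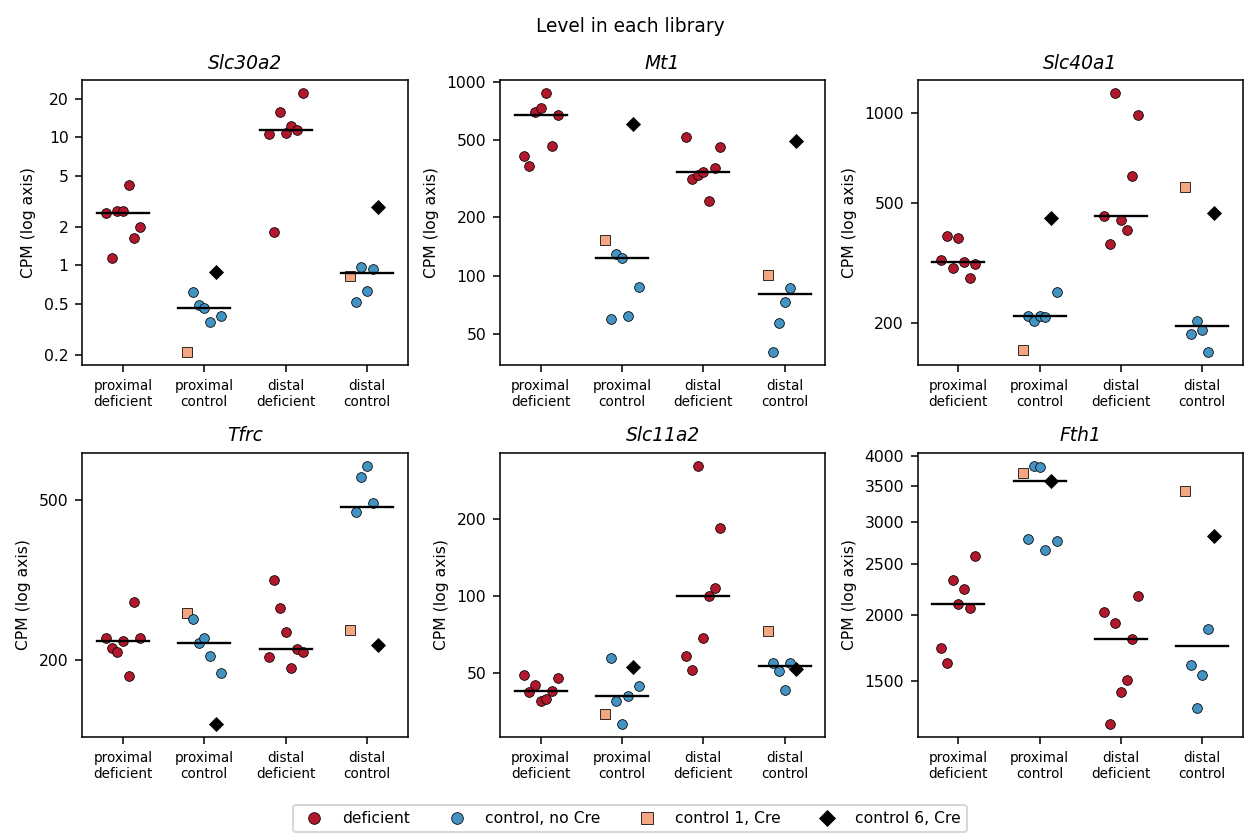
CPM of 6 members in every library on log axes, in the order proximal deficient, proximal control, distal deficient and distal control; bars are medians, squares are control mouse 1 and diamonds control mouse 6, both with Cre. Control mouse 6 lies within the deficient range for Mt1 in both segments and above it for Slc40a1 in proximal colon, and both Cre-carrying controls lie within the deficient range for Tfrc and Slc40a1 in distal colon.

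Slc40a1 (ENSMUSG00000025993.10, chr1:45908068-45926523, minus strand), the only known iron exporter of mammalian cells, was at 323, 389, 305, 382, 319.6, 281 and 313 CPM in proximal deficient mice 1 to 7. Proximal controls were at 163, 211, 203, 211, 209, 447 and 254 CPM. All deficient libraries were above 6 of 7 controls, and control mouse 6 was above all of them. The log2 fold change of 0.46 (SE 0.18) did not pass (adjusted p = 0.116). Without control mouse 6 it was 0.68 (adjusted p = 0.000327), and against Cre-free controls 0.61 (adjusted p = 0.000719). Without the deficient mice that lacked Ddx3y it was 0.53 (adjusted p = 0.206).

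In distal colon Slc40a1 was at 454, 366, 1162, 439.8, 408, 617 and 981 CPM in deficient mice and at 567.6, 183, 202, 189, 159.8 and 465 CPM in control mice. Both Cre-carrying controls lay within the deficient range, well above the 4 Cre-free controls. The log2 fold change was 1.11 (SE 0.37, adjusted p = 0.102). It was 1.40 without control mouse 1 (adjusted p = 0.0388) and 1.78 against Cre-free controls (adjusted p = 0.00761). The highest libraries were deficient mice 3 and 7, both without Ddx3y, and without the 3 deficient mice that lacked it the log2 fold change was 0.69 (adjusted p = 0.406). Heph, its ferroxidase, had log2 fold changes of 0.19 (adjusted p = 0.33) in proximal and -0.23 (adjusted p = 0.476) in distal colon.

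The Cre-carrying controls stood apart from the Cre-free controls for many members in distal colon. Both lay above all 4 Cre-free controls for 13 tested members and below them for 4, 47.2% of members against 29.2% of all tested genes. Besides those already described, Slc31a1, the high-affinity copper importer, was at 346.5 and 347 CPM in control mice 1 and 6 and at 189 to 206 CPM in Cre-free controls, while deficient libraries ran over 190.0 to 341 CPM. In proximal colon both were above for 3 members and below for 1, 11.1% against 6.61%. Here Mt1, Slc30a4, Slc30a9 and Slc39a8 were the members. These are 2 mice of different genotype and age, and Cre, loss of Foxa alleles and other differences between the animals cannot be told apart. Epithelial marker sums in the 2 were 17700 and 19860 CPM in distal colon, above the 12870 to 16440 CPM of Cre-free controls. The distal colonocyte marker sum was 20040 CPM in control mouse 1, within the 14200 to 20940 CPM of Cre-free controls. In control mouse 6 it was 23780 CPM, above that range. The sum of the Paneth list was 28.3 and 598 CPM in distal control mice 1 and 6, against 889 to 2300 CPM in the others. Ang4 reached 2208 CPM in distal controls, while the listed defensins reached at most 0.058 CPM. This sum is therefore no measure of Paneth cells. The part of cell types in the values was not tested.

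Slc11a2 (ENSMUSG00000023030.16, chr15:100387898-100425072, minus strand), the ferrous iron importer, was at 58.5, 51.7, 323, 68.4, 99.9, 107 and 185 CPM in distal deficient mice 1 to 7. Distal controls were at 73.1, 54.7, 51.3, 43.1, 54.7 and 52.0 CPM. Deficient mice 3, 5, 6 and 7 were above all controls and the other 3 were among them. The log2 fold change of 1.22 (SE 0.38) did not pass (adjusted p = 0.0766), though it did without deficient mouse 1 (1.35, adjusted p = 0.0453) or deficient mouse 2 (1.36, adjusted p = 0.0369). Mice 3, 5 and 7 were those without Ddx3y, and without them it was 0.39 (adjusted p = 0.373). In proximal colon the groups overlapped, at 39.0 to 49.4 CPM among deficient libraries, against 31.6 to 57.5 CPM in control libraries.

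The deposited transcript estimates spread the high distal values of Slc11a2 over several isoforms. The transcript Slc11a2-201 averaged 17.6 ± 4.98 TPM in distal deficient and 12.7 ± 1.94 TPM in distal control colon. Slc11a2-205, whose annotated 3′ end lies 4665 bases before that of Slc11a2-201, was at 5.73 to 62.1 TPM in deficient libraries (median 17.1) and 3.81 to 6.15 TPM in controls (median 5.2). Slc11a2-207 begins 1159 bases upstream of Slc11a2-201, and its annotated 3′ end lies 21371 bases before that of Slc11a2-201. It was at 2.94 to 72.0 TPM in deficient libraries (median 9.67) and 1.53 to 5.62 TPM in controls (median 2.46). Medians were higher in deficient mice for all 3 transcripts, and the ranges of the groups overlapped for each of them. Slc11a2-206 and Slc11a2-208 reached 23.3 and 19.9 TPM in deficient libraries, against at most 5.10 and 3.38 TPM in controls. The mean of Slc11a2-204 was lower in deficient colon, at 0.577 against 0.714 TPM. These are estimates in which reads shared by isoforms were divided by a model, and they were not tested. Slc11a1, an iron transporter of macrophage phagosomes, was at 2.09 to 7.83 CPM among distal deficient libraries, against 1.96 to 3.21 CPM among distal controls (log2 fold change 0.97, adjusted p = 0.0974), beside macrophage marker sums of 220 to 443 CPM among deficient libraries, against 208 to 302.5 CPM in control libraries.

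No copper gene passed the edgeR test between genotypes. Slc31a1 had log2 fold changes of 0.18 (adjusted p = 0.189) in proximal and 0.05 (adjusted p = 0.926) in distal colon, and Atp7a, the copper pump of most tissues, had 0.04 (adjusted p = 0.949) and -0.17 (adjusted p = 0.756). Atp7b, the copper pump best known from liver, was barely read, with 8 to 83 counts in a distal deficient library and 4 to 16 in a distal control library. It stood at 0.226 to 2.33 CPM among distal deficient libraries, against 0.116 to 0.692 CPM among distal controls (log2 fold change 1.66, SE 0.54, adjusted p = 0.0952). It passed the filter on low counts mainly through deficient mice, with 7 deficient and 4 control libraries over the minimum in proximal colon and 6 and 3 in distal colon. Slc30a2 in proximal colon had 7 deficient and 6 control libraries over it.

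Other genes of these pathways were counted from a list of 44. In proximal colon 38 were tested, 3 rose and 1 fell (10.5% against 11.7% of all genes), with a median log2 fold change of 0.05. Those were Aco1, the iron regulatory protein that doubles as cytosolic aconitase (0.43, SE 0.08, adjusted p = 0.00114), Bmp6, which induces hepcidin in liver (0.59, SE 0.17, adjusted p = 0.0287), Lcn2, and Alas1, the first enzyme of heme synthesis (-0.55, SE 0.11, adjusted p = 0.00392). In distal colon 36 were tested and 1, Lcn2, rose (2.78% against 6.07% of all genes). Lcn2, which binds iron-carrying bacterial siderophores, was at 4.41 to 20.7 CPM among proximal deficient libraries, against 1.43 to 3.49 CPM among proximal controls (log2 fold change 2.37, SE 0.30, adjusted p = 5.27e-05). In distal colon it was at 11.8 to 131 CPM among deficient libraries, against 2.69 to 9.70 CPM in control libraries (log2 fold change 3.51, SE 0.52, adjusted p = 0.000854). The metal sensors Mtf1 and Ireb2 did not pass between genotypes in either segment. Hepcidin (Hamp) was at most 0.0999 CPM in proximal deficient and 0.174 CPM in proximal control libraries. Its distal levels were 0.0282 to 0.365 CPM in deficient mice, against 0.244 to 1.27 CPM in control mice, and it was too low to be tested between genotypes in either segment.

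Between the segments of the same mice, distal colon held more mRNA of copper transporters and of Heph than proximal colon, and less of Slc30a10, Slc39a8 and Mt2, in both genotypes. In deficient mice 18 of 36 members were called, 8 higher and 10 lower in distal colon, beside 45.1% called of 16514 genes. In control mice 21 were called, 8 higher and 13 lower, 58.3% against 43.8% of 16507 genes. Without the Cre-carrying controls, 5 were higher and 11 lower in control mice, beside 5485 called of 16738 genes. With them, 7231 genes were called. The median log2 fold change of the members was -0.02 in deficient and -0.25 in control mice, beside -0.03 and -0.05 over all genes. By list, 3 of 4 copper genes were higher in each genotype, and of 13 tested importers 1 was higher and 4 lower in deficient mice and 1 higher and 7 lower in control mice. The gap between transcript length and effective length came to 249 bases throughout distal colon and to between 215 and 246 bases in proximal colon, so segment and quantification cannot be told apart, and these calls are given with that limit.

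Slc30a10, which exports manganese, was at 0.819 to 30.5 CPM in distal and 14.9 to 74.3 CPM in proximal colon of deficient mice, lower in distal colon in 6 of 7 mice (log2 fold change -2.93, SE 0.73, adjusted p = 0.00951). Deficient mouse 3 was the exception. In control mice it was at 1.12 to 11.9 CPM in distal and 27.4 to 107 CPM in proximal colon, lower in 6 of 6 mice (log2 fold change -4.17, SE 0.52, adjusted p = 0.000285). In proximal colon its level was 14.9 to 74.3 CPM among deficient libraries, against 27.4 to 107 CPM in control libraries, a log2 fold change of -0.88 (SE 0.35) that did not pass (adjusted p = 0.136).

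Mt2 was lower in distal colon in 7 of 7 deficient mice (log2 fold change -1.37, SE 0.24, adjusted p = 0.00159) and in 6 of 6 control mice (-1.05, SE 0.21, adjusted p = 0.00391). Slc39a8 was lower in every mouse as well, by a log2 fold change of -0.92 (SE 0.19, adjusted p = 0.00408) in deficient and -1.14 (SE 0.11, adjusted p = 6.25e-05) in control mice. Mt3, known from brain, was low throughout, at 0.261 to 2.49 CPM in distal and 2.27 to 7.37 CPM in proximal colon of deficient mice, and at 0.389 to 3.18 CPM in distal and 3.94 to 6.61 CPM in proximal colon of control mice. Its log2 fold changes were -1.54 (adjusted p = 0.0175) in deficient and -1.58 (adjusted p = 0.00432) in control mice, and the call in deficient mice was lost without deficient mouse 3 (-1.39, adjusted p = 0.0509).

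Of the members higher in distal colon, Slc31a1 was so in 7 of 7 deficient mice (log2 fold change 0.88, SE 0.11, adjusted p = 0.000233) and 6 of 6 control mice (0.98, SE 0.14, adjusted p = 0.000648). Heph was higher in the same 7 and 6 mice (0.47, SE 0.14, adjusted p = 0.0186 in deficient and 0.85, SE 0.11, adjusted p = 0.000345 in control mice). Slc30a2 was higher in 7 of 7 deficient mice (2.18, SE 0.30, adjusted p = 0.000355) and in 5 of 6 control mice (1.01, SE 0.31, adjusted p = 0.0271), the control call being lost without the Cre-carrying mice (0.62, adjusted p = 0.194). Slc11a2 was higher in 7 of 7 deficient mice (1.24, SE 0.29, adjusted p = 0.00684), and it was higher in 4 of 6 control mice without a call. Tfrc was called higher in distal colon of control mice (0.92, SE 0.20, adjusted p = 0.00554), by 5 of 6 mice, and was higher in 4 of 7 deficient mice. Slc40a1 was called higher in distal colon of deficient mice (0.80, SE 0.25, adjusted p = 0.0254), in 6 of 7 of them, and the call was lost without deficient mouse 3 (0.62, adjusted p = 0.0619). Mtf1, the zinc sensor, was higher in distal colon by a log2 fold change of 1.06 (SE 0.11, adjusted p = 6.56e-05) in deficient and 1.5 (SE 0.12, adjusted p = 2.15e-05) in control mice.

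**Figure D4:**
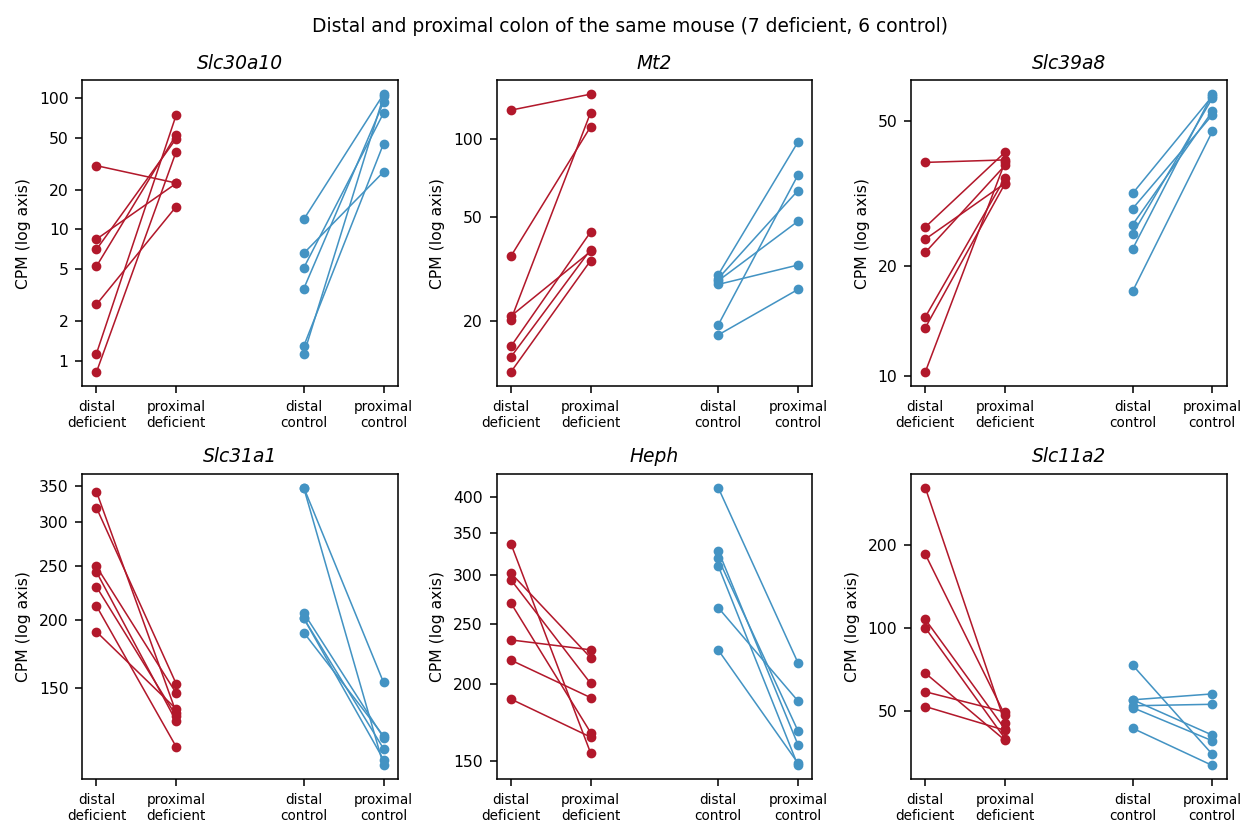
CPM of 6 members on log axes, with a line joining distal (left) and proximal (right) colon of each mouse, deficient mice first. Slc39a8 and Mt2 are lower and Slc31a1 and Heph higher in distal colon in all 13 mice, Slc30a10 is lower in all but deficient mouse 3, and Slc11a2 is higher in distal colon in the 7 deficient mice.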

How the data were processed

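The tools named in the submitters' processing notes are kallisto 0.46.2, cutadapt 2.5, bcl2fastq 2.20.0.422 and edgeR, with GRCm38 as the build. The authors deposited estimated counts and TPM per transcript and a log2 CPM matrix per segment, the scaling of which is not stated. Of 119414 transcripts, 116728 matched GENCODE M21 genes, and the 2686 others (0.902% to 1.27% of counts) were left out. The deposited counts were summed per gene and rounded, TPM were summed unrounded. The CPM shown use TMM factors over all 27 libraries. Fits used edgeR 4.0.16 quasi-likelihood tests (R 4.3.3, filterByExpr, TMM), within segment for genotype and with mouse as a block for segments, with Benjamini-Hochberg adjustment over all genes tested; SE is the log2 fold change divided by the root of F. DESeq2 1.42.0 and limma 3.58.1 (on the deposited log2 CPM) gave alternatives, and procedures were tested on simulated counts. The members and lists, and the rule for named genes (called members with values, those of at least 2-fold in every group, pathway genes of at least 2-fold), were chosen with earlier results of these data known. Further members and pathway genes named in the text were chosen after their values were seen. The gap between a transcript's length and its effective length was 249 bases in distal and 215 to 246 bases in proximal libraries. Replicates are separate mice, and 1 control gave no distal library.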

Additional observations from a re-analysis of the deposited data

Results flagged for a closer look

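For 15 members described above, each group was searched for a library far from the others of its group. The cut was meant to mark about 1 in 20 groups of independent values by chance, and 10 of 60 groups were marked. These members were picked from those described and come from the same mice, so the marked share is no test against chance. Control mouse 6 was the marked library in 7 of them. It was the highest proximal control for Mt1 (606 CPM, the next control at 152 CPM), Slc31a1 (154 CPM, next 123 CPM) and Slc40a1 (447 CPM, next 254 CPM). It was the highest distal control for Mt1 (493 CPM, next 101 CPM), Ftl1 (1559 CPM, next 794 CPM), Slc30a2 (2.85 CPM, next 0.968 CPM) and Slc30a5 (76.3 CPM, next 65.2 CPM). Among deficient mice, mouse 5 was highest for Atp7b in proximal colon (0.688 CPM, next 0.45 CPM), mouse 7 for Mt2 in distal colon (129 CPM, next 35.4 CPM) and mouse 3 for Slc30a10 in distal colon (30.5 CPM, next 8.42 CPM).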

How the results depend on the processing

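Calls of Slc30a2 in both segments and of Fth1, Slc39a7 and Slc39a8 in proximal colon held in every alternative run. In proximal colon 4 members were called higher, but 2 with no filter on low counts and 2 with the replicate block. It was 1 among mice labelled male, 1 among deficient mice with Ddx3y, and 2 to 6 with 1 library left out (3 to 4 lower). Over all genes 927 were called higher, 778 with no filter, 798 with the block, 843 among labelled males and 693 with Ddx3y. With 1 library left out, 734 to 1120 genes were called higher. In distal colon 1 was called higher, but 7 with DESeq2, 4 with the replicate block and 4 against Cre-free controls. It was 3 in mice of 9 to 13 months, 2 from the deposited log2 CPM, and 1 to 4 with 1 library left out. All genes called higher were 433, but 677 with DESeq2, 279 with the block and 454 against Cre-free controls. They were 371 at 9 to 13 months, 346 from the deposited log2 CPM, and 342 to 474 with 1 library left out. The 1 distal member called lower, Tfrc, was 0 under the transcript length offset, the replicate block and labelled males. It was also 0 with Ddx3y-positive deficient mice and the deposited log2 CPM, and 0 to 1 with 1 library left out. Of all genes 540 were lower, against 484, 405, 381, 336 and 434 in these alternatives, in the same order. With 1 library left out, 426 to 549 genes were lower. For the difference between segments, 1 was lower with DESeq2 and against Cre-free controls, against 0. Over all genes 102 were lower, 290 with DESeq2 and 85 against Cre-free controls. Distal against proximal colon, 5 in place of 8 were higher in Cre-free controls (all genes, 2810 in place of 3548). In deficient mice 5 in place of 8 were higher among labelled males (all genes, 3227 in place of 3752). Among deficient mice with Ddx3y 5 were higher and 6 in place of 10 lower (all genes, 2532, and 2242 in place of 3693). Without deficient mouse 3 these were 6 and 7 (all genes, 3029 and 2877). Among single distal against proximal calls in deficient mice, Mt2 was lost without mouse as a block (adjusted p = 0.105) and Slc11a2 among labelled males (adjusted p = 0.0524). Causes were not tested. Same-numbered mice did not pair: correlations of their deviations ran from -0.27 to 0.447, so the replicate block shares only a number. Leaving out single libraries other than deficient mouse 3, and the Ddx3y alternative, were chosen after seeing the data. Depth limits Atp7b and the untested members.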
